A study of Rattus norvegicus with 34 samples.

Results

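The 10 genes described here encode plasma membrane amino acid transporters: Slc3a2, Slc7a1, Slc7a3, Slc7a5, Slc7a7, Slc7a11, Slc38a2, Slc1a4, Slc1a5 and Slc6a9. They were chosen by symbol, with earlier results of these data known, so their counts and medians are not those of a neutral choice. The array annotation gives them 14 probe sets of 31099, for 10 of 14217 named genes. In NRK-52E cells exposed to monuron, 8 of the 10 were higher than in DMSO cells after 72 h and Slc38a2 was lower. At that time 61.6% of all genes tested were called, 30.7% higher and 31% lower. In cells, Slc7a7 exceeded the array median only with monuron, at 24 and 72 h, and Slc7a3 was not measured above background. In kidney none of the 6 members tested differed past the threshold, where 10.2% of genes did. In liver, where 3.13% of genes were called, the 1 call was Slc7a5, lower and below the array median in every monuron liver. That call held in 7 of 16 alternative fits.

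Cells take up amino acids through carriers that differ in charge and size of the substrate. Slc3a2 encodes the heavy chain 4F2hc (CD98), a glycoprotein that carries no substrate itself and brings partner light chains to the membrane. Slc7a5 (LAT1), Slc7a7 (y+LAT1) and Slc7a11 (xCT) encode such light chains, which exchange amino acids across the membrane. LAT1 takes up large neutral amino acids, y+LAT1 exports cationic ones and xCT imports cystine. Several of these genes are known targets of the transcription factor ATF4, which is translated when amino acids are short or when proteins misfold. In kidney, Slc7a7 and Slc3a2 form the basolateral exit route for cationic amino acids in the proximal tubule.

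The samples were 34 rat RNA extracts, each on 1 Affymetrix array, with 3 arrays in each cell group and 4 in each organ group. NRK-52E is an epithelial line from rat kidney, labelled with the genotype Osborne-Mendel. Its cells were labelled as monuron or DMSO (0.1%) exposed for 6, 24 or 72 h, and each group holds 3 biological replicates of this 1 line. Monuron is a phenylurea herbicide, but the cell protocol names another compound, chlorothalonil, at 1.1 µM, so the agent and its concentration in the cells are in doubt, and "monuron cells" below follows the labels. The rats were Wistar-derived males of 190 to 240 g, aged 7 to 9 weeks. They received monuron in corn oil (5 ml/kg) at 40 mg/kg on day 1 and 400 mg/kg on days 2 and 3, and control rats received corn oil alone. The organ labels give 72 h and the protocol gives 72 h after the last dose, so exposure and recovery cannot be told apart. Nothing in the labels says that kidney and liver came from the same rats.

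Values are log2 expression, in which a difference of 1 is a doubling. Tests covered genes that exceeded the array's median on 3 or more cell arrays (4 or more in an organ), and a gene was called where limma's adjusted p, over all genes of the fit, was below 0.05. The p-values measure the spread between these samples. Array medians lay between 3.97 and 4.20 in cells, 3.90 and 3.95 in kidney and 3.67 and 3.78 in liver, and a value below them is close to background. Correlations between arrays of 1 group lay between 0.987 and 0.999. In NRK-52E cells 7 of 9 proximal tubule markers and the epithelial markers Cdh1 and Krt18 were above the median on no array, although Krt8 and Vim were on all of them. Kidney had 9 of 9 proximal tubule markers and liver 7 of 7 hepatocyte markers above the median on every array.

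DMSO 72 h replicate 3 stood apart from the other DMSO 72 h arrays. On a scale with the mean of DMSO 72 h replicates 1 and 2 at 0 and the mean of the monuron 72 h arrays at 1, it lay at 0.929 for Slc7a11, 0.906 for Slc7a5, 0.877 for Slc1a4 and 0.73 for Slc7a1. It lay at 0.614 for Slc6a9, 0.555 for Slc1a5, 0.515 for Slc3a2 and 0.44 for Slc38a2. For Slc7a7 it lay at 0.035, with the DMSO arrays. All 18 cell arrays share 1 estimate of spread per gene, so this array also widens the errors at 6 and 24 h. Cell results whose value or call depends on it are therefore given with and without it. Leaving it out moves no difference at 6 or 24 h, only its error, and every member call made there with all arrays held without it. The array was set apart by values of the same members that were tested. Leaving it out must therefore enlarge their 72 h differences, and the p-values without it are no independent support.

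RefSeq promoters (build GRCr8, 250 bases before to 50 after the start site) were found for 8 of the 10 members, in 9 windows. Motifs were searched on both strands, and 100 bases each are shown for Slc1a4 and Slc7a1, which hold the element bound by ATF4 and its partners or a near form of it, and for Slc3a2, the partner of the light chains, with the match in capitals. The C/EBP-ATF response element, TGATGCAA, occurred in 1 of the 8 genes, Slc1a4, at position -235 on the minus strand, and in 0.79% of all 33469 promoters. With the base in its sixth place left free (TGATGNAA, which includes the first motif) it also occurred in Slc7a1 at position -30, and in 3.98% of all promoters. The core of the antioxidant response element, TGACNNNGC, occurred in 4 of the 8 genes (Slc3a2, Slc7a1, Slc7a7 and Slc38a2) and in 12.06% of all promoters. The cAMP response element, TGACGTCA, was in 0 of the 8 and in 1.83% of all promoters. Slc1a4 is at chr14:98761713-98761812 (minus strand), Slc7a1 at chr12:11664388-11664487 (plus strand) and the Slc3a2 window at chr1:215039671-215039770 (minus strand).
Slc1a4: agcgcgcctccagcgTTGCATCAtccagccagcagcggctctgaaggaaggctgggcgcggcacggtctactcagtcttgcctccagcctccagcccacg
Slc7a1: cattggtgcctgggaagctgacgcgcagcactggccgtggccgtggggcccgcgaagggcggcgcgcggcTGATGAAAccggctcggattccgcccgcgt
Slc3a2: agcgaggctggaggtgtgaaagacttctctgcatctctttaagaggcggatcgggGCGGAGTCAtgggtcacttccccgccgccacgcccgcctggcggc
The capitals lie far from the start site in Slc1a4 and close to the start site in Slc7a1 and Slc3a2. A match is a description of the letters and does not show a bound site.

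The monuron difference in cells was asked at each time. Of the 10 members, 9 passed the filter, Slc7a7 through the monuron cells at 24 and 72 h alone. At 6 h 3 members were higher and 0 lower, where 6.32% of the 9040 genes tested were called, 3.3% higher and 3.02% lower. At 24 h 2 were higher and 0 lower, where 13.5% of genes were called, 6.4% higher and 7.13% lower. At 72 h 8 were higher and 1 lower, where 61.6% of genes were called, 30.7% higher and 31% lower, so that a call alone sets a gene little apart at that time. The monuron and DMSO arrays did not overlap for 7 members at 6 h (38.1% of genes), 8 at 24 h (49.4%) and 9 at 72 h (57.9%). The median difference of the 9 members was 0.91, 1.21 and 2.31 at 6, 24 and 72 h, beside -0.016, -0.0028 and 0.0067 for all genes tested. With DMSO 72 h replicate 3 left out, 7 were higher at 6 h (13.2% of genes called), 6 higher at 24 h (22.7%), and 8 higher with 1 lower at 72 h (66%). With the replicate number as a block, 4 members were called at 6 h, with Slc7a11 added (adjusted p = 0.04537).

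**Figure D1:**
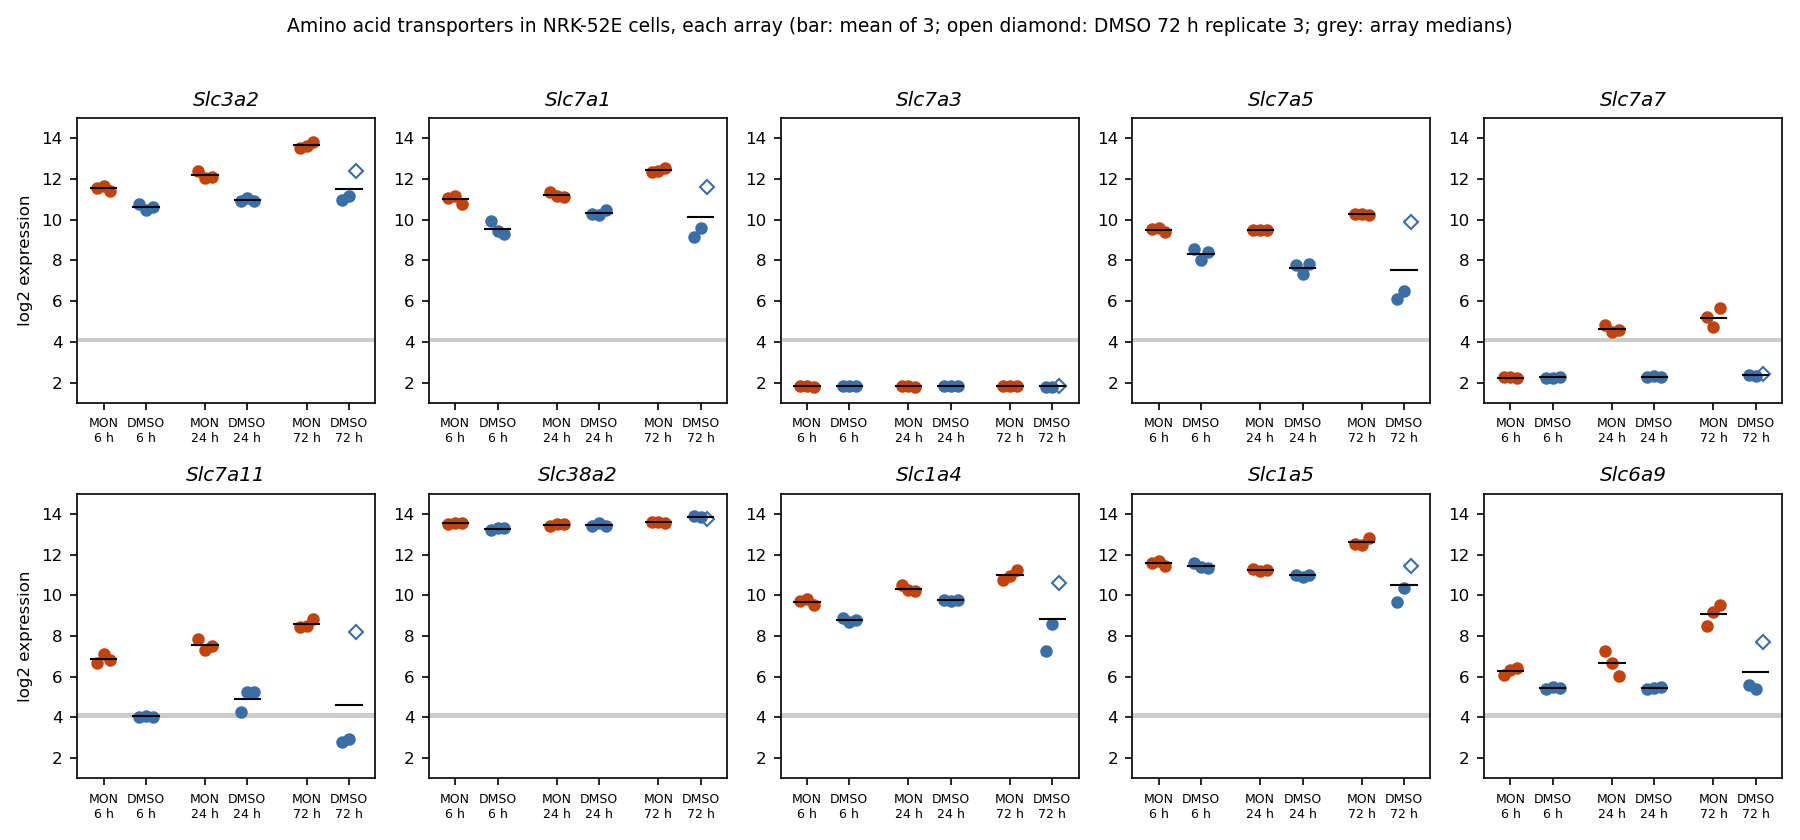
Log2 expression (y axis) of the 10 transporters on each NRK-52E array, by exposure time and with monuron left of DMSO. Points are arrays, bars are means of 3, the grey band holds the array medians, and the open diamond is DMSO 72 h replicate 3, which lies near the monuron arrays for Slc7a11, Slc7a5 and Slc1a4 and with the DMSO arrays for Slc7a7.

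Slc3a2, the shared heavy chain, was higher in monuron cells at all 3 times. At 6 h it measured 11.54, 11.68 and 11.43 in monuron cells, against 10.80, 10.50 and 10.63 in DMSO cells. The lowest monuron array was above the highest DMSO array, and the difference was 0.91 (SE 0.24, adjusted p = 0.03654). At 24 h it measured 12.38, 12.06 and 12.11 in monuron cells, against 10.94, 11.06 and 10.92 in DMSO cells, a difference of 1.21 (SE 0.24, adjusted p = 0.005382). At 72 h it measured 13.55, 13.64 and 13.82 in monuron cells, against 11.00, 11.18 and 12.42 in DMSO cells. The difference was 2.14 (SE 0.24, adjusted p = 2.695e-06), a fold of 4.4, and 2.58 (SE 0.11) without DMSO 72 h replicate 3. The call at 6 h was lost without any 1 of the 6 arrays of that time or without DMSO 24 h replicate 1 (adjusted p up to 0.1427), with arrays centred on their medians (0.06271) and without the filter on dim probe sets (0.0648).

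Slc7a5, the LAT1 light chain that takes up leucine and other large neutral amino acids, was called at 72 h. It measured 10.26, 10.30 and 10.26 in monuron cells at 72 h, against 6.12, 6.51 and 9.90 in DMSO cells. The groups did not overlap, but DMSO replicate 3 lay close to the monuron arrays. The difference was 2.76 (SE 0.61, adjusted p = 0.001048) with that array and 3.96 (SE 0.17, adjusted p = 2.056e-11) without it. At 6 h Slc7a5 measured 9.55, 9.59 and 9.40 in monuron cells, against 8.58, 8.02 and 8.42 in DMSO cells. At 24 h it measured 9.48, 9.50 and 9.50 in monuron cells, against 7.76, 7.31 and 7.83 in DMSO cells. Neither difference, 1.17 (SE 0.61, adjusted p = 0.2656) and 1.86 (SE 0.61, adjusted p = 0.0535), passed in the main fit, although the groups did not overlap at either time. With the replicate number as a block and all arrays kept, the 24 h difference passed (adjusted p = 0.04051). Both differences passed without DMSO 72 h replicate 3, with a smaller SE of 0.15 and adjusted p-values of 0.0001507 and 1.067e-06.

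Slc7a11, the xCT light chain that imports cystine in exchange for glutamate, had the largest difference of the members at each time. At 72 h it measured 8.44, 8.50 and 8.84 in monuron cells, against 2.78, 2.91 and 8.18 in DMSO cells. DMSO replicates 1 and 2 were below their array medians and replicate 3 was far above its own. The difference was 3.97 (SE 0.91, adjusted p = 0.001392), and leaving out replicate 3 gave 5.75 (SE 0.26, adjusted p = 3.635e-11). The value of 5.75 is set against background values alone, so its size is uncertain. With all arrays kept and values below the array median raised to it, the 72 h difference was 3.08 (adjusted p = 0.001311). In a fit of the 72 h arrays alone the difference was 3.97 and missed the threshold (adjusted p = 0.05331). At 6 h Slc7a11 measured 6.67, 7.09 and 6.80 in monuron cells, against 4.03, 4.07 and 4.03 in DMSO cells, which were at the array median. At 24 h it measured 7.87, 7.32 and 7.51 in monuron cells, against 4.25, 5.27 and 5.25 in DMSO cells. The 6 h difference of 2.81 (SE 0.91, adjusted p = 0.07442) and the 24 h difference of 2.64 (SE 0.91, adjusted p = 0.06357) missed the threshold in the main fit. With all arrays kept they passed with the replicate number as a block (adjusted p = 0.04537 and 0.03884). They also passed with values below the array median raised to it (0.02656 and 0.02173). Without DMSO 72 h replicate 3 they passed at an SE of 0.23 and adjusted p-values of 1.548e-06 and 1.781e-06.

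Slc7a7, the y+LAT1 light chain that exports cationic amino acids, was near background in every DMSO array and in monuron cells at 6 h. It measured 2.27, 2.25 and 2.22 in monuron cells at 6 h, against 2.24, 2.24 and 2.26 in DMSO cells. At 24 h it measured 4.85, 4.47 and 4.58 in monuron cells, against 2.26, 2.35 and 2.28 in DMSO cells. At 72 h it measured 5.21, 4.71 and 5.65 in monuron cells, against 2.37, 2.30 and 2.43 in DMSO cells. It thus lay just above the array median in monuron cells at the later times only, and DMSO 72 h replicate 3 was no exception. The differences were 2.34 (SE 0.21, adjusted p = 1.786e-05) at 24 h and 2.82 (SE 0.21, adjusted p = 7.84e-08) at 72 h, and without DMSO 72 h replicate 3 the second was 2.86. Both are set against background values, so their size is uncertain. With every value below the array median raised to that median, the difference was 0.48 and no longer passed at 24 h (adjusted p = 0.07812), and it was 1.05 at 72 h (adjusted p = 9.879e-05).

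Slc7a1 encodes CAT1, the main carrier of arginine and lysine into many cells, and was called at 6 and 72 h. At 6 h it measured 11.05, 11.18 and 10.78 in monuron cells, against 9.92, 9.45 and 9.28 in DMSO cells, a difference of 1.45 (SE 0.40, adjusted p = 0.04149). At 72 h it measured 12.33, 12.41 and 12.56 in monuron cells, against 9.17, 9.59 and 11.61 in DMSO cells, a difference of 2.31 (SE 0.40, adjusted p = 0.0001269). The groups did not overlap at either time, and without DMSO 72 h replicate 3 the 72 h difference was 3.05 (SE 0.17). At 24 h the values were 11.37, 11.16 and 11.10 in monuron cells, against 10.29, 10.22 and 10.50 in DMSO cells. That difference, 0.87 (SE 0.40, adjusted p = 0.1581), passed only without DMSO 72 h replicate 3 (SE 0.15, adjusted p = 0.0008656). The 6 h call was lost in 13 of the 18 fits that left out 1 array: it held when any 1 of the 3 DMSO 72 h arrays or replicate 1 or 3 of the monuron 72 h arrays was left out. It was also lost with arrays centred (adjusted p = 0.05539), without the filter (0.07297), without the trend in the moderation (0.05404) and with each probe set as a feature (0.0512). Slc7a3, which encodes the related cationic carrier CAT3, lay between 1.80 and 1.93 on all 34 arrays, below every array median, and was not tested.

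Slc38a2 encodes SNAT2, a sodium-coupled importer of small neutral amino acids whose synthesis is known to respond to amino acid supply. Its differences in cells were small. At 6 h it measured 13.51, 13.56 and 13.55 in monuron cells, against 13.19, 13.31 and 13.31 in DMSO cells, a difference of 0.27 (SE 0.06, adjusted p = 0.01321). At 72 h it measured 13.59, 13.60 and 13.54 in monuron cells, against 13.91, 13.87 and 13.75 in DMSO cells, a difference of -0.27 (SE 0.06, adjusted p = 0.0007974). The sign thus differed between these times, and all monuron arrays lay below all DMSO arrays at 72 h. At 24 h the groups overlapped, with a difference of 0.01 (SE 0.06, adjusted p = 0.8995). The 72 h difference was -0.31 (SE 0.06) without DMSO 72 h replicate 3, and the 6 h call was lost without monuron 6 h replicate 2, monuron 6 h replicate 3 or DMSO 6 h replicate 1 (adjusted p up to 0.07061).

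Slc1a4 and Slc1a5 encode the sodium-coupled carriers ASCT1 and ASCT2, which exchange alanine, serine and cysteine, and in ASCT2 also glutamine. At 72 h Slc1a4 measured 10.77, 10.94 and 11.24 in monuron cells, against 7.28, 8.57 and 10.61 in DMSO cells. The 3 DMSO arrays were spread more widely than for any other group of this gene. The difference was 2.16 (SE 0.49, adjusted p = 0.001306), but 1.39 without DMSO 72 h replicate 1 and 3.06 (SE 0.24) without replicate 3, and in a fit of the 72 h arrays alone it missed the threshold (adjusted p = 0.05473). Slc1a5 measured 12.52, 12.49 and 12.80 in monuron cells at 72 h, against 9.67, 10.33 and 11.45 in DMSO cells. Its difference was 2.12 (SE 0.27, adjusted p = 7.855e-06) and 2.60 (SE 0.14) without replicate 3. At 6 and 24 h the Slc1a5 differences were 0.12 and 0.25 (SE 0.27 each) and did not pass in either fit. The Slc1a4 difference of 0.91 (SE 0.49, adjusted p = 0.2842) at 6 h passed only without DMSO 72 h replicate 3 (adjusted p = 0.01209), and that of 0.56 at 24 h in neither fit. The 24 h differences of both genes did pass without any 72 h array and in a fit of 24 h alone. The adjusted p-values of limma were 0.01733 and 0.008391 for Slc1a5, and 0.0003575 and 0.0009733 for Slc1a4. At 24 h the groups did not overlap for either gene.

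Slc6a9 encodes GLYT1, a sodium- and chloride-coupled glycine importer. At 72 h it measured 8.48, 9.19 and 9.53 in monuron cells, against 5.58, 5.37 and 7.68 in DMSO cells. The groups did not overlap, and the difference was 2.86 (SE 0.45, adjusted p = 5.016e-05), or 3.60 (SE 0.29) without DMSO 72 h replicate 3. At 24 h it measured 7.25, 6.69 and 6.04 in monuron cells, against 5.40, 5.42 and 5.47 in DMSO cells. The monuron arrays were all higher but spread over more than 1 unit. The differences of 0.86 (SE 0.45, adjusted p = 0.2665) at 6 h and 1.23 (SE 0.45, adjusted p = 0.07656) at 24 h did not pass in the main fit. Both passed without DMSO 72 h replicate 3 (adjusted p = 0.03837 and 0.003116). With the replicate number as a block and all arrays kept, the 24 h difference passed too (adjusted p = 0.02576).

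**Figure D2:**
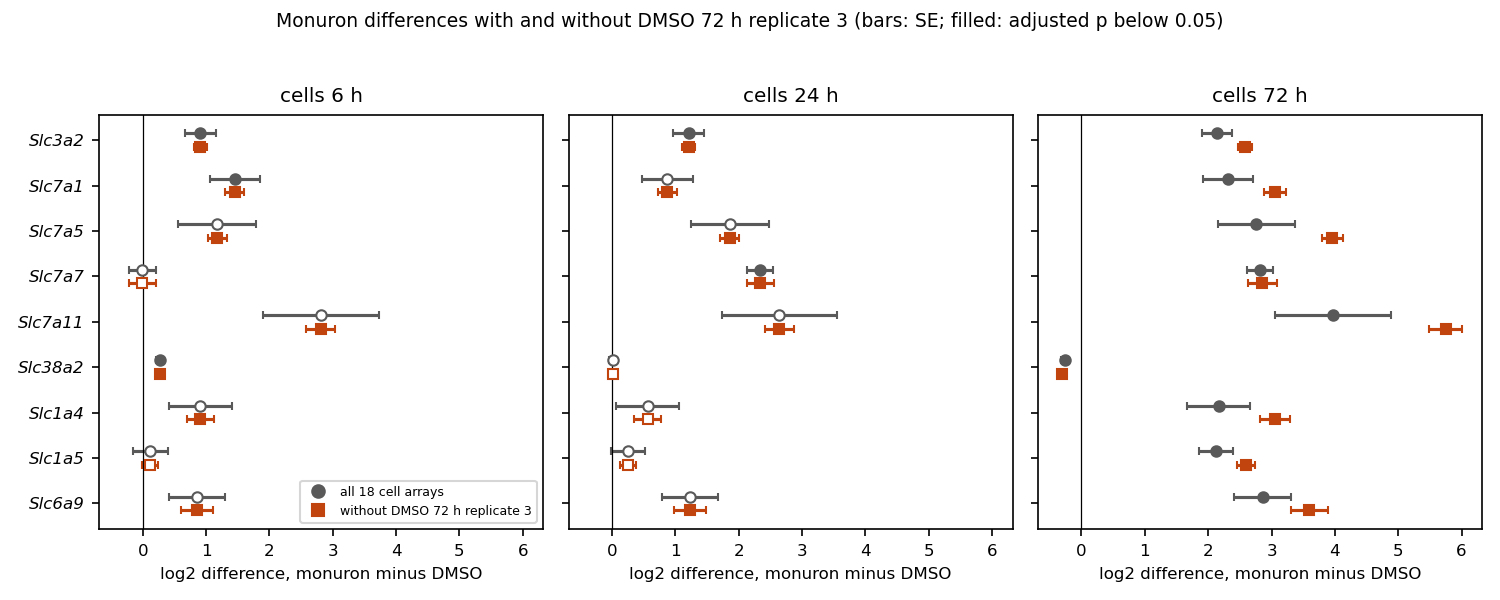
Log2 differences of monuron minus DMSO cells (x axis) for the 9 transporters tested, at 6, 24 and 72 h. Circles use all 18 cell arrays and squares leave out DMSO 72 h replicate 3; bars are SE, and filled symbols have an adjusted p below 0.05. Without that array the 6 and 24 h differences stay in place with smaller errors, and 7 and 6 members are filled.

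Whether the monuron difference itself changed between times was tested in the same fit; the differences at 24 h enter both tests. From 6 to 24 h the difference of Slc7a7 grew by 2.34 (SE 0.29, adjusted p = 0.001529), where 1.22% of genes were called, but by 0.41 with values below the array median raised to it (adjusted p = 0.3871). The changes of the other 8 members tested lay between -0.58 (Slc7a1) and 0.68 (Slc7a5) and did not pass. From 24 to 72 h the difference grew by 1.88 for Slc1a5 (SE 0.38, adjusted p = 0.001492) and by 0.93 for Slc3a2 (SE 0.34, adjusted p = 0.04284), and it changed by -0.28 for Slc38a2 (SE 0.08, adjusted p = 0.01266), where 37.9% of genes were called. With arrays centred on their medians the change of Slc38a2 was -0.19 and did not pass (adjusted p = 0.07999). The other 6 changed by 0.48 (Slc7a7) to 1.63 (Slc6a9, adjusted p = 0.0522) and did not pass. The change of Slc3a2 held in 4 of the 18 fits that left out 1 array: those that left out replicate 1 of DMSO 6 h, of monuron 24 h or of monuron 72 h, or replicate 3 of DMSO 72 h. Its adjusted p was 0.05295 to 0.07646 in 4 other fits, with the mean of probe sets, each probe set as a feature, no filter or no trend. Without DMSO 72 h replicate 3, 7 members had a larger difference at 72 h than at 24 h, among them Slc1a5 by 2.36 and Slc3a2 by 1.37, and Slc38a2 had a smaller one at -0.32 (48.8% of genes called), and from 6 to 24 h Slc38a2 was added with a smaller difference (adjusted p = 0.04969; 6.52% of genes called).

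The DMSO cells also moved over time. Slc38a2 was higher at 24 h than at 6 h by 0.18 (SE 0.06, adjusted p = 0.01423) and higher at 72 h than at 24 h by 0.39 (SE 0.06, adjusted p = 0.0001217). No other member was called in either comparison, where 53.1% and 28% of genes were called. The others lay between -0.71 (Slc7a5) and 0.98 (Slc1a4) from 6 to 24 h, and between -0.94 (Slc1a4) and 0.78 (Slc6a9) from 24 to 72 h. The rise to 24 h was 0.04 with arrays centred on their medians (adjusted p = 0.537), a scaling that lowers the median of all genes by 0.13, and the call was lost without replicate 1 of the DMSO 6 h arrays or replicate 2 of the DMSO 24 h arrays. Without DMSO 72 h replicate 3, 5 members were higher and 2 lower at 24 h than at 6 h (58.9% of genes called), and Slc38a2 was higher, by 0.44, and 5 were lower at 72 h than at 24 h (37.6%).

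Slc7a1 and Slc6a9 each had 3 probe sets. A second Slc7a1 set gave differences of 1.48, 0.95 and 2.07 at 6, 24 and 72 h (adjusted p = 0.01954, 0.07961 and 9.423e-05), close to the main set, and the third set was below the array median on every array. The other sets of Slc6a9 lay above the array median in monuron cells at 72 h and in no other cell group. They measured 5.26, 5.80 and 6.23, and 4.66, 5.82 and 6.17, in monuron cells at 72 h, against 2.74, 2.75 and 3.04, and 1.82, 1.82 and 3.23, in DMSO cells. Their differences were 2.92 and 3.26 (adjusted p = 3.228e-07 and 2.101e-05). Both sets passed the filter through the monuron 72 h arrays alone and are set against background values. The size of these differences is thus uncertain, and they are no separate support for the main set. Without DMSO 72 h replicate 3 they were 3.02 and 3.73, and that of the second Slc7a1 set was 2.68. Without it the second Slc7a1 set also passed at 24 h (adjusted p = 0.0001866). The set of Slc6a9 with the larger 72 h difference passed at 24 h too, at 1.29 (adjusted p = 0.02882), with all its values there below the array median.

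For each member the genes with the most alike pattern were taken by Pearson's r over the 18 cell arrays, which share time, treatment and DMSO 72 h replicate 3. Slc3a2 was most like Cebpg (r = 0.981), Herpud1 (0.979) and Herpud2 (0.978). Slc7a1 was most like Atf4 (0.988), Herpud1 (0.965) and Bltp3a (0.964). Slc7a5 was most like Asns, the asparagine synthetase gene (0.97), Bcat1 (0.968) and Cmas (0.962). Cebpg and Atf4 encode transcription factors, Herpud1 a protein of the endoplasmic reticulum and Bcat1 an enzyme of branched-chain amino acids. Slc7a11 was most like Trib3 (0.965), Inhbe (0.965) and Atf4 (0.958). Slc1a4 was most like Atf3 (0.944), the member Slc7a1 (0.93) and Rai14 (0.929). Slc1a5 was most like Pabpc4 (0.983), the antioxidant gene Srxn1 (0.981) and Trip4 (0.976). These are descriptions without a test. Slc6a9 was most like Manea (0.97), Rnf138 (0.967) and Grb10 (0.966). Slc7a7 was most like Nmnat3 (0.947), Tmem167b (0.942) and Zc3h14 (0.929). Slc38a2, with the narrowest range, was most like Aebp2 (0.879), Prrc2b (0.875) and Prkci (0.874). Over the 17 arrays without DMSO 72 h replicate 3 the first-named gene stayed in first place for Slc3a2, Slc7a1, Slc7a5, Slc7a7, Slc7a11, Slc1a4 and Slc1a5, and Manea moved to place 6 for Slc6a9 (r = 0.969) and Aebp2 to place 3 for Slc38a2 (r = 0.874).

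Genes of the amino acid shortage response, a list of ATF4 regulators and targets without the members, were counted in the same comparisons. The shares of all genes called, 6.32%, 13.5% and 61.6% at 6, 24 and 72 h, stand beside this list and the 3 that follow. Without DMSO 72 h replicate 3 the shares were 13.2%, 22.7% and 66%, and these stand beside the counts given without that array. Of 39 tested, 7 were higher and 0 lower at 6 h, 15 and 0 at 24 h, and 33 and 1 at 72 h. Their median differences were 0.45, 0.76 and 1.59. Without DMSO 72 h replicate 3 the counts were 22, 33 and 35 higher and 0 lower. At 6 h the 4 with the smallest adjusted p were Cebpg, a partner of ATF4, at 0.77 (adjusted p = 0.002197), Cars1 at 1.46, Nupr1 at 0.63 and Chac1, a glutathione-degrading enzyme gene, at 3.25 (adjusted p = 0.009683). At 24 h they were Nupr1 at 1.71, Cebpg at 0.77, the hormone gene Fgf21 at 1.29 and Ddit3 at 1.80. At 72 h they were Fgf21 at 7.05 (SE 0.23, adjusted p = 6.778e-12), Stc2 at 2.61, Cebpg at 1.06 and Mars1 at 1.57. The 1 lower gene at 72 h was Eif2ak4, which encodes the amino acid sensing kinase GCN2, at -0.46 (adjusted p = 0.02071); it was named after its values were seen, and it was not called without DMSO 72 h replicate 3 (-0.29, adjusted p = 0.1046). Each other gene named from this list or the 3 that follow kept its call without that array, where Fgf21 was at 7.19 and Srxn1 at 2.74 at 72 h.

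Of 41 other amino acid transporters listed, 14 were tested in cells, and 1 was higher and 1 lower at 6 h, and 2 higher and 0 lower at 24 h. At 6 h Slc38a9, a lysosomal arginine sensor, was higher by 0.83 (adjusted p = 0.04418) and Slc43a2 lower, at -0.79 (adjusted p = 0.04064). At 24 h Slc25a15, a mitochondrial ornithine carrier, and Slc43a2 were higher, by 0.52 and 0.90. At 72 h 5 were higher and 3 lower, among them Slc25a15 at 0.98, the taurine transporter Slc6a6 at -1.09, Slc38a10 at 0.60 and Slc25a12 at 0.33. Leaving out DMSO 72 h replicate 3 gave 1 higher and 1 lower at 6 h, 3 and 1 at 24 h, and 6 and 3 at 72 h. The median difference of this list was 0.02 at 6 h, -0.0032 at 24 h and -0.03 at 72 h.

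Genes that sense amino acids for the growth kinase complex mTORC1 were called at 6 h about as often as all genes. Of 30 tested, 2 were higher and 0 lower at 6 h, 4 and 2 at 24 h, and 10 and 12 at 72 h. The folliculin partners Fnip1 and Fnip2 were higher at 6 h by 0.77 and 0.60. At 24 h Rragd, a Rag GTPase gene, was higher by 1.51 and Fnip2 by 0.76, with Rraga lower at -0.31 and Fnip1 higher by 0.54. At 72 h Sec13 was higher by 0.96 and Fnip2 by 1.24, and Lamtor4 (-1.05) and Castor2 (-1.31) were lower. The counts were 3 and 1, 4 and 2, and 10 and 12 without DMSO 72 h replicate 3.

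Cystine taken up by xCT feeds glutathione, and of 17 genes tested for cystine and glutathione metabolism 0 were higher and 1 lower at 6 h, 2 and 1 at 24 h, and 9 and 2 at 72 h. At 6 h Gpx4 was lower, at -0.33. At 24 h Nfe2l2 was higher by 0.34 and Cth by 1.76, while Gclc, the catalytic subunit gene of glutathione synthesis, was lower, at -0.55. At 72 h Txnrd1 was higher by 0.96, Srxn1 by 2.24, Ggct by 2.50 and Gclm by 1.56. Without DMSO 72 h replicate 3 the counts were 1 and 1, 2 and 1, and 12 and 1. At 72 h 1 of the leukocyte markers, Cd68, was higher in monuron cells by 2.30 while the other 3 of 4 were below the median on every array, and Krt8 was lower, at -1.11. Marker sums here and below are log2 of the summed unlogged values, so the brightest marker weighs most. The summed leukocyte markers lay between 5.64 and 6.43 in monuron cells and between 4.53 and 4.92 in DMSO cells. At 72 h the summed proximal tubule markers lay between 5.85 and 6.15 in monuron cells and between 6.42 and 8.09 in DMSO cells. Aqp1, which was not tested, had means of 2.10 in monuron and 5.98 in DMSO cells. Ggt1, not called with all arrays, went the other way, with means of 4.65 and 4.28. The part of these markers in the 72 h differences was not tested.

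**Figure D3:**
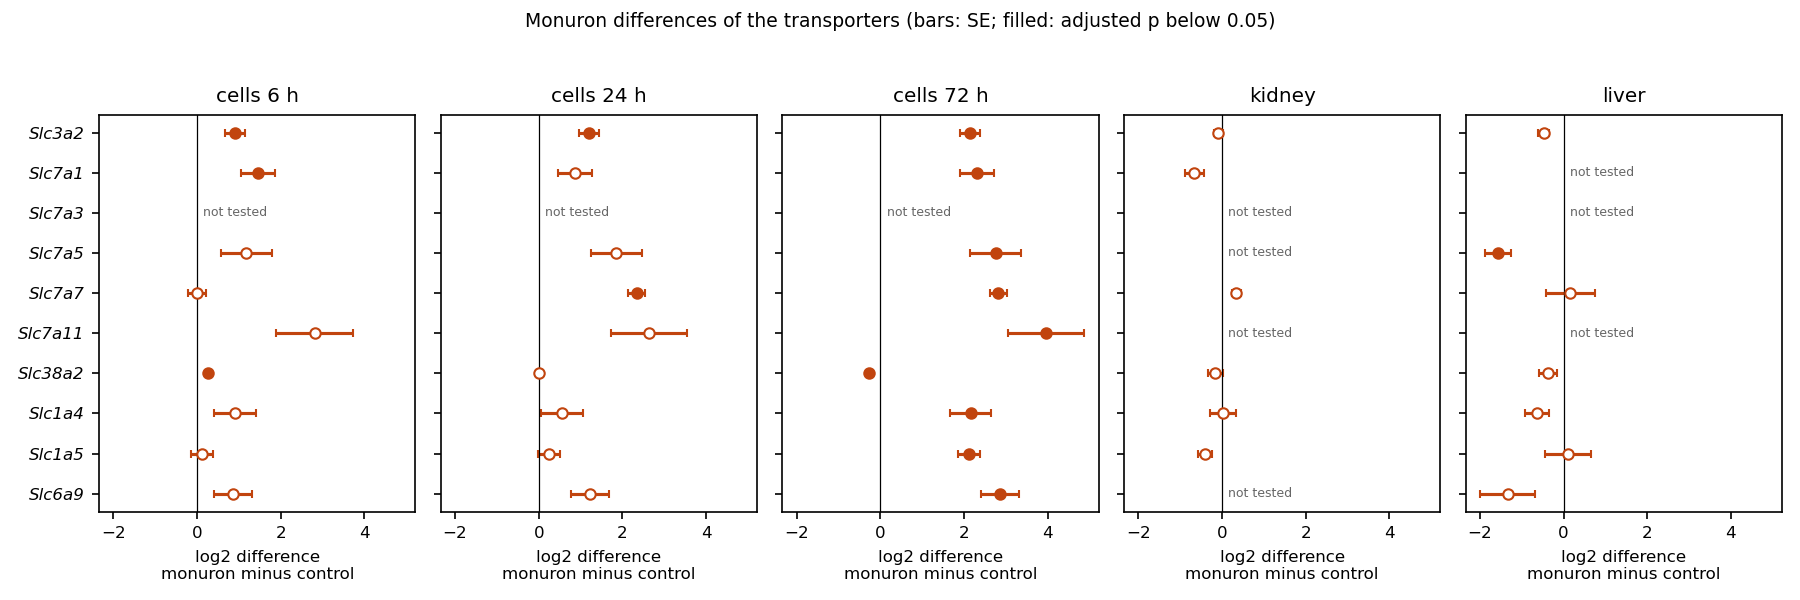
Log2 differences of monuron minus DMSO cells (3 panels) and of monuron minus control kidney and liver, for the 10 transporters. Bars are SE and filled circles have an adjusted p below 0.05. At 72 h in cells 8 transporters are higher and 1 is lower, where 61.6% of all genes tested were called. None is filled in kidney, and Slc7a5 is lower in liver.

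In kidney 6 of the 10 members were tested and 0 were called by limma, where 10.2% of 9538 genes were (3.87% higher and 6.33% lower). An unadjusted p below 0.05 was found for 3 members, and for 2817 of the 9538 genes. The groups overlapped for all 6, while they did not for 19.4% of genes. Slc7a7, which in kidney works on the basolateral side of the proximal tubule, was far above the array median. It measured 12.80, 12.89, 12.76 and 12.42 in monuron kidneys, against 12.30, 12.32, 12.35 and 12.51 in control kidneys. The groups overlapped through monuron replicate 4 and control replicate 4, and the difference of 0.35 (SE 0.10, adjusted p = 0.05375) missed the threshold. Without monuron kidney replicate 4 it was 0.44 and passed (adjusted p = 0.007443), and with arrays centred on their medians it was 0.35 and passed (adjusted p = 0.04894). In whole tissue, fewer cells of a type and less RNA per cell cannot be told apart.

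The heavy chain Slc3a2 measured 12.45, 12.50, 12.29 and 12.08 in monuron kidneys, against 12.37, 12.26, 12.58 and 12.46 in control kidneys, a difference of -0.09 (SE 0.10). Slc7a1 measured 5.79, 5.28, 5.28 and 5.25 in monuron kidneys, against 5.58, 5.82, 6.21 and 6.63 in control kidneys. Its difference was -0.66 (SE 0.23, adjusted p = 0.09606), with monuron replicate 1 inside the control range. Slc1a5 measured 7.41, 7.02, 6.64 and 6.82 in monuron kidneys, against 7.39, 7.39, 7.15 and 7.56 in control kidneys, a difference of -0.40 (SE 0.17, adjusted p = 0.1518). For Slc38a2 the difference was -0.16 (SE 0.18) and for Slc1a4, which lay around the array median, it was 0.03 (SE 0.32). Slc7a5, Slc7a11, Slc7a3 and Slc6a9 were at or below the median of every kidney array and were not tested, so the light chain with the largest difference in cells was at background in kidney.

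**Figure D4:**
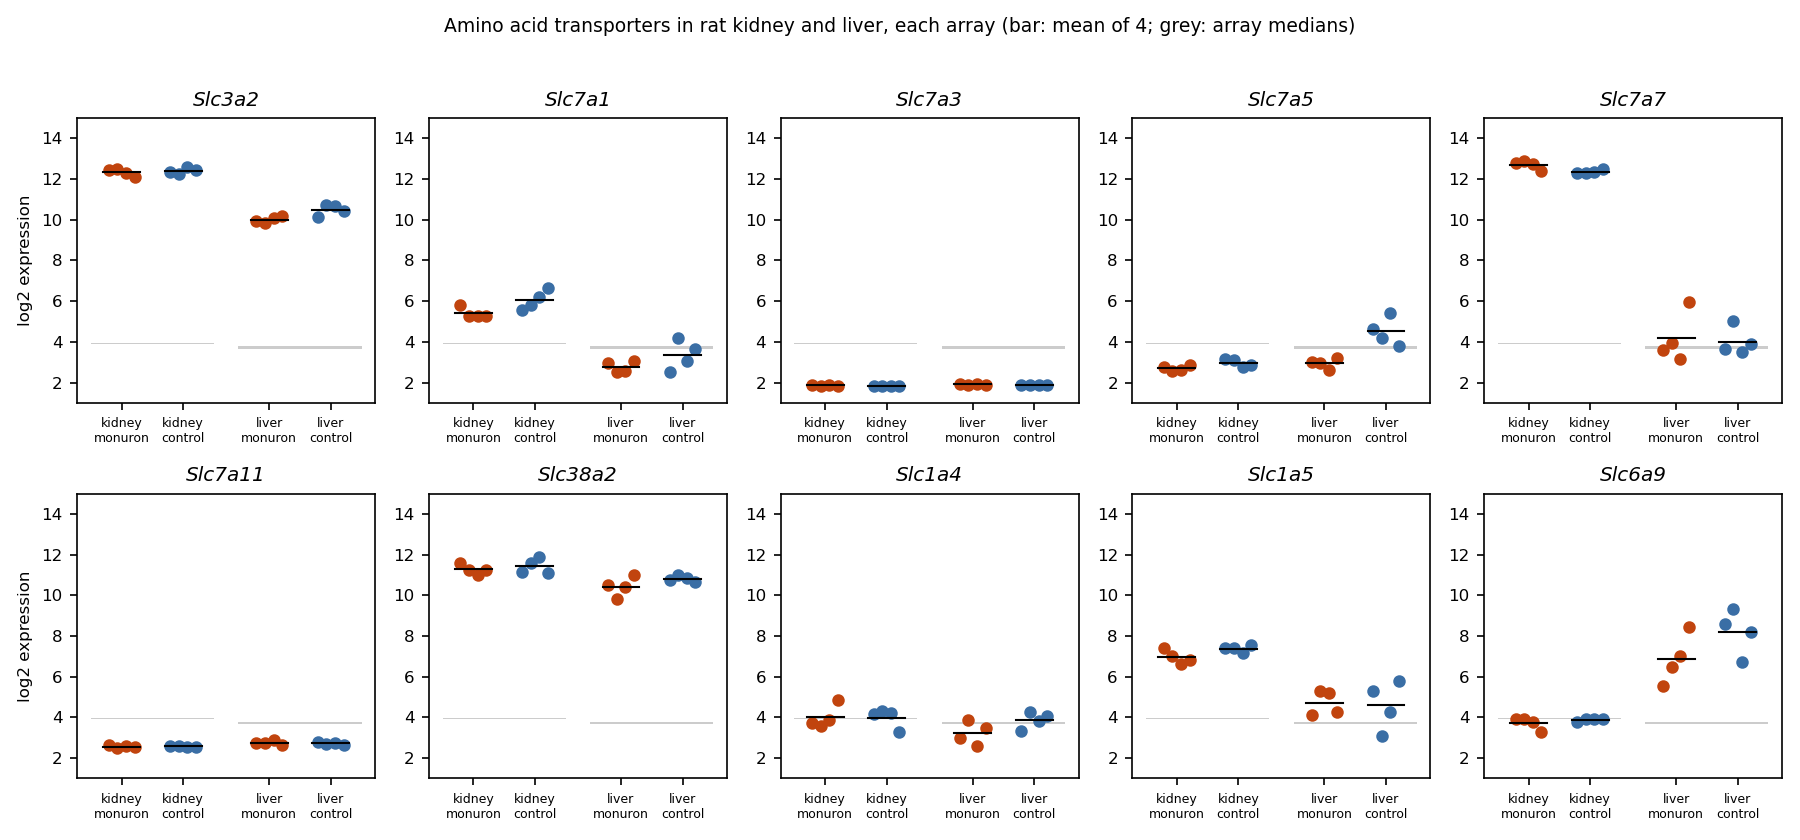
Log2 expression (y axis) of the 10 transporters on each kidney and liver array, with monuron left of control. Points are arrays, bars are means of 4 and grey bands hold the array medians; the groups overlap in every panel except Slc7a5 in liver, where all 4 monuron arrays lie below the band and all 4 control arrays above it.

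In liver 7 members were tested and 1 was called, Slc7a5, where 3.13% of 9352 genes were (1.1% higher and 2.03% lower). It was the 1 member whose groups did not overlap, as for 14.1% of genes. It measured 3.03, 2.95, 2.62 and 3.19 in monuron livers, against 4.64, 4.20, 5.40 and 3.81 in control livers. All monuron values were below their array medians and all control values above, so Slc7a5 passed the filter through the control livers alone. The difference was -1.57 (SE 0.31, adjusted p = 0.03948), and -0.79 with values below the array median raised to it (adjusted p = 0.153). The call was lost without monuron liver replicates 1, 2 or 3 or control liver replicates 1 or 2, each in turn (adjusted p up to 0.1172). Of the proximal tubule markers, 4 of 9 were tested in liver and 2 of them, Aqp1 (2.10) and Slc22a8 (0.62), were higher in monuron livers, as was Vim (0.57). The summed proximal tubule markers lay between 11.92 and 12.21 in monuron livers and between 11.20 and 11.57 in control livers. That sum mainly follows Slc22a8 (mean 11.97 in monuron and 11.35 in control livers). Hepatocyte markers had 0 of 7 called, and their sum lay between 18.06 and 18.15 in monuron livers and between 18.14 and 18.16 in control livers. Whether these shifts bear on Slc7a5 was not tested.

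The other 6 members tested in liver did not pass. Slc3a2 measured 9.92, 9.87, 10.09 and 10.17 in monuron livers, against 10.15, 10.73, 10.67 and 10.41 in control livers, a difference of -0.48 (SE 0.14, adjusted p = 0.08571). Slc6a9, the glycine importer, measured 5.56, 6.46, 7.03 and 8.44 in monuron livers, against 8.58, 9.31, 6.72 and 8.22 in control livers. Its difference of -1.34 (SE 0.66, adjusted p = 0.2532) was within a wide spread in both groups, and its other probe sets lay above the array median on 1 monuron and 3 control arrays each. Slc38a2 and Slc1a4 differed by -0.37 (SE 0.22) and -0.63 (SE 0.30), and Slc7a7 and Slc1a5 by 0.17 (SE 0.58) and 0.11 (SE 0.55). Slc7a1, Slc7a11 and Slc7a3 did not pass the filter.

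Of 8 members in the joint fit of both organs, 0 had a liver difference that differed from the kidney difference at the adjusted threshold by limma, where 2.68% of genes did. An unadjusted p below 0.05 was found for 2 members, and for 1665 of the 10108 genes. For Slc7a5 the liver difference minus the kidney difference was -1.31 (SE 0.36, adjusted p = 0.06503), and for Slc3a2 it was -0.39 (SE 0.18, adjusted p = 0.2737). The other 6 lay between -1.19 (Slc6a9) and 0.51 (Slc1a5). Slc7a5 passed the filter of this fit through the 4 control livers alone. Its value was -0.78 with values below the array median raised to it (adjusted p = 0.2172), and it passed in 2 of 24 alternative fits, without control liver replicate 3 (-1.01, adjusted p = 0.04662) or 4 (-1.54, adjusted p = 0.02051). In kidney Slc7a5 measured 2.74, 2.59, 2.63 and 2.86 in monuron rats, against 3.13, 3.12, 2.74 and 2.85 in control rats, all below the array median.

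The lists around the transporters were counted in the organs too, beside the 10.2% of genes called in kidney and 3.13% in liver. In kidney 3 of 22 other amino acid transporters were higher and 0 lower: Slc25a13 by 0.63 (SE 0.10, adjusted p = 0.00699), Slc6a18, a neutral amino acid transporter of the brush border, by 0.96 (SE 0.19, adjusted p = 0.01612) and Slc3a1, the heavy chain of the cystine transporter, by 0.39 (SE 0.09, adjusted p = 0.02288). Of the proximal tubule markers, 2 of 9 were also higher, Cubn (1.01) and Lrp2 (0.63). The summed markers lay between 17.52 and 17.64 in monuron kidneys and between 17.40 and 17.50 in control kidneys. Whether this bears on Slc6a18, Slc3a1 or Slc7a7 was not tested. Of the leukocyte markers 1 of 3 tested was higher (Ptprc, 0.46), and their sum lay between 13.79 and 14.27 in monuron kidneys and between 14.14 and 14.36 in control kidneys. Of the hepatocyte markers 1 of 4 tested was lower (Cyp2e1, -0.88) while Alb (2.43, adjusted p = 0.06059), Ttr (1.25) and Cps1 (-1.17) did not pass. The summed hepatocyte markers lay between 13.06 and 13.92 in monuron kidneys and between 14.17 and 14.49 in control kidneys. That sum mainly follows Cyp2e1 (mean 13.40 in monuron and 14.28 in control kidneys), and the markers did not move together. Of the epithelial markers 1 of 4 was lower (Krt8, -0.61), and their sum lay between 12.05 and 12.35 in monuron kidneys and between 12.34 and 12.86 in control kidneys. In liver 0 of 16 other amino acid transporters were called, and 4 had an unadjusted p below 0.05, as did 2244 of all 9352 genes tested.

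The shortage response list had 3 higher and 5 lower of 34 in kidney, with Gdf15 at -3.28 (SE 0.43, adjusted p = 0.003061), Cebpb at -0.88, Asns at -0.68 and Gars1 at -0.42. In liver it had 0 higher and 1 lower of 34, Atf5 at -0.49 (adjusted p = 0.01364). Cystine and glutathione genes had 2 higher and 4 lower of 16 in kidney, with Nqo1 at -2.93, Srxn1 at -3.49, Txnrd1 at -0.69 and Hmox1 at -1.10. In liver they had 0 higher and 5 lower of 16, with Gclc at -0.94, Srxn1 at -1.62, Txnrd1 at -0.75 and Gpx4 at -0.25. Of the mTORC1 list, 0 of 29 in kidney and 0 of 27 in liver were called by limma, with 5 and 5 at an unadjusted p below 0.05. Of all genes tested, 2817 of 9538 in kidney and 2244 of 9352 in liver had such a p. In the joint fit, Slc43a1 had a higher liver than kidney difference, by 0.77, and Slc25a13 (-0.56) and Slc6a18 (-0.96) a lower one.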

How the data were processed

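RNA from 18 NRK-52E cell samples, 8 kidneys and 8 livers was measured on Affymetrix rat arrays. The authors deposited log2 expression values per probe set made with GCRMA, per the submitters' processing notes; the sources used here do not give its version. The method removes background and brings arrays to a common distribution, so overall shifts between arrays are largely removed. Arrays have no read depth, and their number limits the precision. No pair of arrays held identical values (0 found).

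Of 31099 probe sets, 57 controls were left out, 20826 had 1 gene symbol, 436 several and 9780 none. Each gene was represented by the brightest of its probe sets, by mean over the arrays fitted. The genes tested (above the array median on 3 or more cell or 4 or more organ arrays) numbered 9040 for cells, 9538 for kidney, 9352 for liver and 10108 for the organs jointly. The test was limma 3.58.1 (R 4.3.3; lmFit, eBayes with trend, two-sided), with Benjamini-Hochberg adjustment and a threshold of 0.05. Cells were fitted as 6 groups together and the organs apart. On simulated data, log2 changes of 1 were recovered in 88% of 100 genes for cells at 6 h, 84% for kidney, 77% for liver and 63% for liver against kidney. These genes were drawn at random and given normally distributed noise. The rates do not describe members such as Slc7a11 (SE 0.91 at 6 h), whose errors DMSO 72 h replicate 3 widens. A member that was not called is thus not shown to be unchanged.

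The members and lists were chosen with earlier results of these data known. Members called are named in every comparison, the others by value or range, with up to 4 genes of each list by smallest adjusted p. Deviations from group means of same-numbered monuron and DMSO arrays correlated at 0.198 to 0.491 at 6 h and 0.168 to 0.317 at 72 h. Unlike-numbered arrays reached 0.301 and 0.275 at these times, so pairing by number is not established. The same-numbered values were -0.116 to 0.128 at 24 h, -0.216 to 0.018 in kidney and -0.165 to 0.046 in liver. The main fits used group means without pairing. Promoters are from RefSeq tables. Alternatives were the filter, probe set summary, moderation, centring, a limit at the array median, the replicate block, other sets of cell arrays and each array left out. Leaving DMSO 72 h replicate 3 out of the list results, other probe sets and correlations was chosen after seeing the data. For the members its removal was among the fits that left out each array in turn, but the array was singled out by its values.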

Additional observations from a re-analysis of the deposited data

Results flagged for a closer look

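In groups of 4 arrays, 2 of the 26 checked held 1 array far from the rest by Dixon's criterion, which chance reaches in about 1 in 20 groups. Slc7a1 was highest in monuron kidney replicate 1, at 5.787, and Slc1a4 was lowest in control kidney replicate 4, at 3.263. Neither gene was called in kidney. The monuron difference in cells changed between times for 4 members by the interaction test: Slc7a7 from 6 to 24 h (2.344), and Slc3a2 (0.928), Slc38a2 (-0.279) and Slc1a5 (1.876) from 24 to 72 h. Of all genes, 1.22% were called from 6 to 24 h and 37.9% from 24 to 72 h. The change of Slc7a7 was 0.41 and did not pass with values below the array median raised to it. That of Slc3a2 held in 4 of 18 fits with 1 array left out, and that of Slc38a2 did not pass with arrays centred.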

How the results depend on the processing

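Over 84 member results and 2164 alternative values, 1957 kept direction and side of the threshold, 106 gained the call, 64 lost it, 37 had the other sign without a call and 0 reversed; the causes were not tested unless the setting has fewer samples or genes. At 6 h 3 members were called, 1 without the filter on dim probe sets, 1 with arrays centred, 7 in fits without the 72 h arrays, of that time alone or without both 72 h arrays numbered 3, and 0 to 7 with 1 array left out. At 24 h 2 were called, 5 with the replicate block, 8 without the 72 h arrays or with that time alone, 6 without both arrays numbered 3, and 2 to 6 with 1 left out. At 72 h 9 were called, and 7 in a fit of that time alone, without Slc7a11 (adjusted p = 0.05331) and Slc1a4 (0.05473). For the change from 6 to 24 h the count was 1, 0 with values limited at the array median, 3 without the 72 h arrays or both arrays numbered 3, and 1 to 2 with 1 left out; from 24 to 72 h it was 3, also when centred, but with Slc6a9 in place of Slc38a2 (-0.1869, adjusted p = 0.07999), 6 with the block, 8 without both arrays numbered 3, and 2 to 8. For DMSO 24 h minus 6 h it was 1, 0 centred, 7 without the 72 h arrays or both arrays numbered 3, and 0 to 7; for 72 h minus 24 h it was 1, 6 without both, and 1 to 6. In kidney 0 became 1 when centred and 0 to 1 with 1 left out; in liver 1 became 0 without the filter, limited, without the trend or with the block, and 0 to 1 with 1 left out; between the organs it was 0 to 1. Centring moved the split of genes called at 6 h to 169 higher and 392 lower, from 298 and 273, at 72 h to 3090 and 2312, from 2774 and 2798, and for DMSO 24 h minus 6 h to 1635 and 3274, from 2239 and 2561. The block gave adjusted p = 0.1145 for Slc7a5 in liver, and changed no other call at 6 or 72 h than Slc7a11 at 6 h. Values below the array median limit Slc7a7 in cells, Slc7a11 in DMSO cells at 72 h and Slc7a5 in liver.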
